A study of Mus musculus with 6 samples.

Results

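Calcium release and store entry channels were described in mouse haematopoietic stem cells through 10 genes among the 49585 gene rows of each count file. The genes were chosen by function: Itpr1, Itpr2 and Itpr3, which encode the IP3 receptors, Ryr1 and Ryr3 of the ryanodine receptors, Tpcn1 and Tpcn2 of the endolysosomal TPC channels, the ADP-ribose-gated channel gene Trpm2, the store sensor gene Stim1 and the entry channel gene Orai1. All 10 had a count row, and 9 passed the filter on low counts that left 14785 genes for testing; Ryr3 did not pass. Their paralogues Ryr2, Stim2, Orai2 and Orai3 were read beside them.

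Bulk RNA sequencing was performed on bone marrow stem cells of untreated C57BL/6 mice aged 8 to 16 weeks. The sort took lineage-negative cells with Kit and Sca-1 on the surface, positive for CD150 and CD201 and lacking CD48 and CD34, and parted them by surface CD38 into a CD38-positive (CD38hi) and a CD38-negative (CD38lo) population. Each of the 6 libraries held the sorted cells of a pool of 10 mice, with 3 libraries per population, matched in 3 pairs by the series' design text; a common pool of mice behind a pair is not stated. The series addresses the enzymatic activity of CD38 in stem cell dormancy, and the question taken up here is which channels for the calcium messengers that CD38 makes are transcribed in these cells, and whether their levels differ with surface CD38.

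CD38 uses NAD to make cyclic ADP-ribose and ADP-ribose, and it can also make NAADP. These messengers raise calcium inside the cell. Cyclic ADP-ribose is known to act through ryanodine receptors of the endoplasmic reticulum, NAADP through TPC channels of endosomes and lysosomes, and ADP-ribose opens TRPM2 in the plasma membrane. IP3, made by phospholipase C below surface receptors, opens the IP3 receptors. When the store empties, STIM proteins in its membrane sense the loss and open Orai channels in the plasma membrane, which is called store-operated entry.

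Total counts ranged from 16771180 to 18558610 per library, and 3 counts, used as a floor, correspond to 0.166 to 0.183 CPM, the unit of normalised level used here (counts per 1e6 of a library size that the TMM method adjusts for differences in composition). The 14 stem cell marker genes listed were all detected, and their summed level ran from 919 to 1996 CPM in CD38-positive and from 1176 to 2622 CPM in CD38-negative libraries. Transcripts of other cells were present too: 18 neutrophil and monocyte genes, led by S100a8, summed to between 8.08% and 17.8% of the normalised counts, with both extremes in CD38-positive libraries. The 12 B and plasma cell genes summed to 953 to 1432 CPM in CD38-positive and 1651 to 4130 CPM in CD38-negative libraries, and were lower on the CD38-positive side in 3 of 3 pairs. Erythroid genes summed to 4448 to 11430 CPM, and the megakaryocyte, T and NK cell, endothelial and stromal, and basophil and mast cell lists each to 886.3 CPM or less. Cd34 and Cd48, whose proteins the sort excludes, were at 204 to 291 CPM and 53.5 to 144 CPM. A level below is therefore that of the sorted sample as a whole; how much of it comes from stem cells was not tested. In such bulk samples fewer cells of a type and less RNA per cell cannot be told apart.

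Every member had reads in all 6 libraries, but at levels far apart: Stim1 and Orai1 led, Tpcn2, Itpr1 and Tpcn1 followed, Itpr2 and Itpr3 were lower, and Trpm2, Ryr1 and Ryr3 were scarce. No member passed the test between the populations, which 0.0135% of all tested genes passed.

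IP3 receptors and ryanodine receptors are related tetrameric channels whose ion path narrows at a selectivity filter. The coding stretches of that filter are shown for the 5 members of these families because the results turn on which paralogue a read belongs to. Capitals mark the 6 filter codons, and 21 bases are given on each side (GENCODE M21 transcripts, coding strand, read 5′ to 3′).
Itpr1: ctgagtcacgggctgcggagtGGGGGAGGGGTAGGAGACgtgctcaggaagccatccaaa
Itpr2: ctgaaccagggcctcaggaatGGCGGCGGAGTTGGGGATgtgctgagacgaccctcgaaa
Itpr3: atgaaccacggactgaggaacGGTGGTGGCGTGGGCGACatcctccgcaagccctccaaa
Ryr1: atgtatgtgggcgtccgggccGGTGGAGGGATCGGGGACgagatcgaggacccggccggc
Ryr3: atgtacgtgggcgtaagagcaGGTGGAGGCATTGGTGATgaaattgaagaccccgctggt
The 3 IP3 receptor stretches shared 40 to 43 of 60 bases with each other, and those of Ryr1 and Ryr3 shared 45. Over the whole coding sequence, Itpr1 and Itpr2 were identical at 72.3% of aligned bases, Itpr1 and Itpr3 at 71.4% and Itpr2 and Itpr3 at 72.2%. The longest identical run between any of their transcripts was 28, 29 and 32 bases, respectively. It was 30 bases between Ryr1 and Ryr3, 14 between Tpcn1 and Tpcn2, 15 between Stim1 and Stim2, and 17 to 29 among the Orai genes. Gene counts do not resolve splice forms, so "isoform" here means paralogue.

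All 3 IP3 receptor genes had reads in every library. Itpr1 (GRCm38 chromosome 6, 108213096 to 108551109, plus strand) had read counts of 317, 246 and 409 on the CD38-positive side of pairs 1, 2 and 3 and of 264, 391 and 345 in their CD38-negative partners. These counts correspond to 19.0, 13.9 and 22.6 CPM against 15.7, 21.7 and 21.1 CPM, so the populations overlapped and pair 2 ran opposite to the other pairs. Itpr2 (chromosome 6, 146108299 to 146502223, minus strand) had 180, 188 and 162 reads against 158, 118 and 77. At 10.8, 10.6 and 8.94 CPM against 9.41, 6.56 and 4.71 CPM, it was higher on the CD38-positive side of all 3 pairs, while its level in the CD38-negative library of pair 1 lay within the CD38-positive range. Itpr3 (chromosome 17, 27057304 to 27122223, plus strand) was the most even, with 71, 72 and 78 reads against 67, 64 and 59.

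Levels of different genes can be compared only per length, and here the level was taken as CPM per kilobase of merged annotated exons. On this scale Itpr1 was at 1.04 ± 0.191 (SD over 6 libraries), Itpr2 at 0.575 ± 0.163 and Itpr3 at 0.440 ± 0.0352. The median level of the 14785 tested genes was 3.91 on the same scale, and 23.7%, 14.5% and 11.2% of them were below Itpr1, Itpr2 and Itpr3. Itpr1 thus made up 50.6% ± 8.67 (SD, n = 6 libraries) of the IP3 receptor transcripts per kilobase, Itpr2 27.9% ± 7.63 and Itpr3 21.5% ± 1.44. Itpr1 was the largest share in each of the 6 libraries, at 39.4% to 61.6%. Itpr2 and Itpr3 were less clearly ordered, since Itpr2 was higher in 5 of 6 libraries only. The shares depended on the length used. With the longest annotated transcript as length they were 62.0%, 23.7% and 14.3% for Itpr1, Itpr2 and Itpr3, and Itpr2 was above Itpr3 in 6 of 6 libraries.

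The IP3 receptor mix was compared between the populations. Where CD38 was high, Itpr1 held 46.3% ± 6.95 of the family, and where it was low 54.8% ± 9.23 (SD over 3 libraries each). Its share was 2.02 points higher in pair 1 and 19.2 and 8.33 points lower in pairs 2 and 3, and an exact permutation test, two-sided and with the population exchanged inside each pair, gave p = 0.5 (3 pairs cannot give a p below 0.25). The Itpr2 share was 32.0% ± 5.59 (SD, n = 3) against 23.9% ± 8.10 (SD, n = 3), again with pair 1 opposed to the others (exact permutation p = 0.5). The Itpr3 share was 21.7% against 21.2% (exact permutation p = 1).

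**Figure D1:**
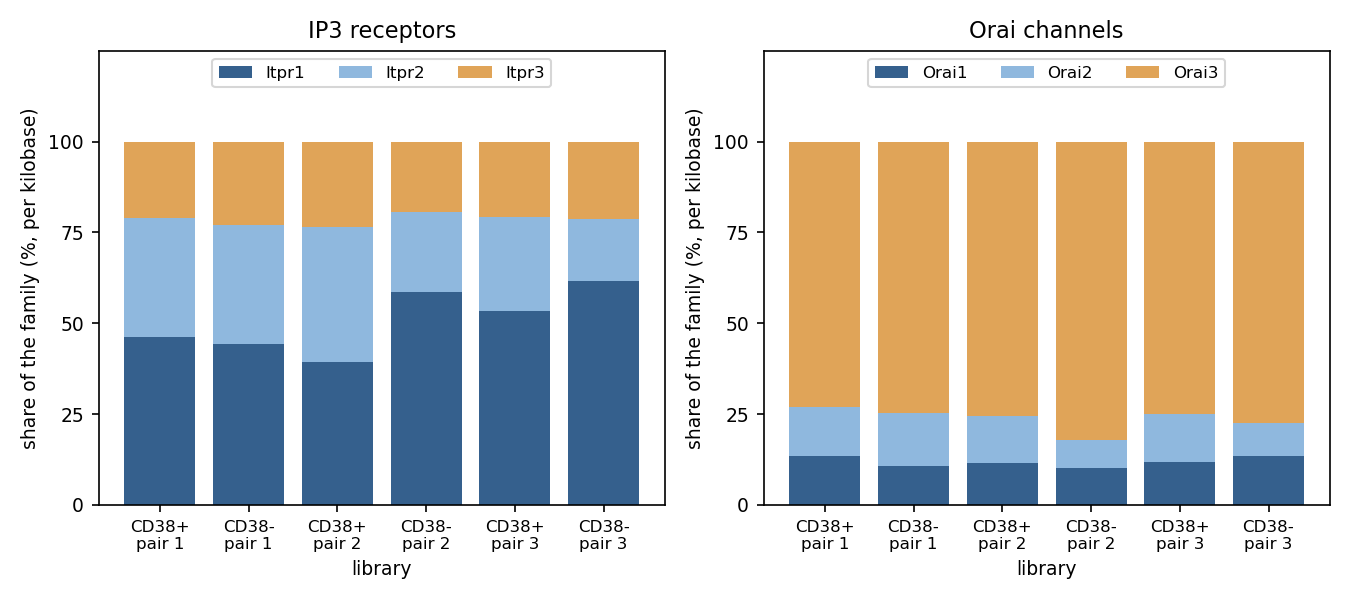
Share of each paralogue in its family (percent of the summed CPM per kilobase, vertical axis) in the 6 libraries, with the CD38-positive and CD38-negative library of each pair side by side. Itpr1 is the largest part of the IP3 receptors at 39.4% to 61.6%, and Orai3 takes 73.0% to 82.1% of the Orai channels.

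Ryanodine receptor transcripts were scarce. Ryr1 (chromosome 7, 29003344 to 29125179, minus strand), the skeletal muscle paralogue, had 19, 15 and 27 reads in CD38-positive and 20, 12 and 17 reads in CD38-negative libraries, or 0.667 to 1.49 CPM. Ryr3 (chromosome 2, 112631355 to 113217096, minus strand) had 5, 3 and 5 reads against 9, 4 and 6, which is 0.170 to 0.536 CPM and close to the floor. Ryr2, the cardiac paralogue, had 2 reads in the CD38-negative library of pair 2 and 0 in the other 5 libraries. Per kilobase, Ryr1 was at 0.0487 ± 0.0131 and Ryr3 at 0.0164 ± 0.00678 (SD, n = 6 libraries). Trpm2, the next member above them, was 4.31 times the level of Ryr1. The gene Aven lies on the opposite strand over Ryr3 and shares 916 exon bases with it; Aven had 270 reads in all libraries together against 32 for Ryr3, so the Ryr3 reads are uncertain where strand is not known to be used in counting. The antisense gene Gm26604 shares 864 exon bases with Ryr1 and had 0 reads.

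The TPC genes, whose channels span the membranes of endosomes and lysosomes, were both present. Tpcn1 (chromosome 5, 120534153 to 120588673, minus strand) was at 12.8, 8.32 and 7.45 CPM in CD38-positive and 11.4, 5.23 and 6.24 CPM in CD38-negative libraries of pairs 1, 2 and 3. Both libraries of pair 1 were above the other 4, so Tpcn1 varied more between pairs than within them. Tpcn2 (chromosome 7, 145186524 to 145284011, minus strand) was at 13.0, 10.5 and 13.3 CPM against 12.0, 9.73 and 5.87 CPM. The CD38-negative library of pair 3 stood below the rest for Tpcn2, and the populations overlapped. Per kilobase, Tpcn2 was at 2.04 ± 0.525 and Tpcn1 at 1.01 ± 0.350 (SD, n = 6 libraries), and Tpcn1 made up 33.1% ± 6.37 of the family. That share did not follow the population: it was 0.638 and 8.03 points higher in CD38-positive libraries of pairs 1 and 2 and 13.9 points lower in pair 3 (exact permutation p = 1).

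Trpm2 (chromosome 10, 77907722 to 77970563, minus strand) had 56, 38 and 61 reads in CD38-positive and 46, 53 and 18 reads in CD38-negative libraries. At 3.36, 2.15 and 3.37 CPM against 2.74, 2.95 and 1.10 CPM it overlapped between populations, with its lowest level in the CD38-negative library of pair 3. Its mean level of 0.209 ± 0.0695 per kilobase (SD, n = 6 libraries) was below that of all IP3 receptor and TPC members. Trpm2 is also known from neutrophils and monocytes, whose marker genes summed to 178400, 80830 and 104100 CPM in the CD38-positive and 129200, 87050 and 140000 CPM in the CD38-negative libraries of pairs 1, 2 and 3. The library with the highest sum, CD38-positive of pair 1, had Trpm2 at 3.36 CPM. That with the lowest sum, CD38-positive of pair 2, had 2.15 CPM. The CD38-negative library of pair 3, with the second highest sum, had the lowest Trpm2 level. The part of those cells in the Trpm2 reads was not tested.

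Stim1 was the most abundant member. Stim1 (chromosome 7, 102267806 to 102437319, plus strand) had 1380, 1888 and 1618 reads in CD38-positive and 1432, 1420 and 789 reads in CD38-negative libraries. These are 82.7, 107 and 89.3 CPM against 85.3, 79.0 and 48.2 CPM, with the CD38-negative library of pair 3 far below the others and pair 1 nearly level. Per kilobase Stim1 was at 7.89 ± 1.84, above 63.7% of tested genes, and its paralogue Stim2, a sensor that responds to smaller losses of stored calcium, was at 1.76 ± 0.275 (SD, n = 6 libraries). Stim1 made up 80.9% ± 5.91 of the pair of sensors, or 90.5% with the longest annotated transcript as length. With merged exons its share was 84.6% ± 3.12 where CD38 was high and 77.3% ± 6.12 where it was low (SD over 3 libraries each). The difference of 7.31 points, which was 4.09 points with the longest transcript as length, had an exact permutation p of 0.5 and the opposite sign in pair 1, at -1.51 points.

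Among the entry channels the listed member, Orai1, was not the leading paralogue. Orai1 (chromosome 5, 123015074 to 123030456, plus strand) had 211, 276 and 231 reads in CD38-positive and 180, 215 and 206 reads in CD38-negative libraries, while Orai3 (chromosome 7, 127769815 to 127775150, plus strand) had 1077, 1690 and 1373 against 1180, 1624 and 1108. Orai2 (chromosome 5, 136147459 to 136170713, minus strand) had 570, 833 and 681 against 655, 435 and 368. Per kilobase Orai3 was at 36.1 ± 5.94, above 88.7% of tested genes, compared with 5.61 ± 1.54 for Orai2 and 5.54 ± 0.703 for Orai1 (SD, n = 6 libraries). Orai3 exceeded both in 6 of 6 libraries and took 76.3% ± 3.18 of the family, while Orai2 and Orai1 could not be ordered (Orai2 higher in 4 of 6 libraries). The Orai3 share was lower in CD38-positive libraries in all 3 pairs, by 1.71, 6.70 and 2.40 points, which gave an exact permutation p of 0.25, the lower limit with 3 pairs. The Orai1 share was 12.2% ± 0.999 against 11.4% ± 1.78 (SD, n = 3 each, exact permutation p = 0.75).

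Placed in 1 order by level per kilobase, the members ran Stim1, Orai1, Tpcn2, Itpr1, Tpcn1, Itpr2, Itpr3, Trpm2, Ryr1 and Ryr3. Of the 9 neighbouring pairs of genes in this order, 5 kept it in 6 of 6 libraries. The exceptions were Stim1 over Orai1, Tpcn2 over Itpr1 and Itpr2 over Itpr3, each in 5 of 6 libraries, and Itpr1 over Tpcn1 in 3 of 6. Stim1 and Orai1 were above all release channels in each of the 6 libraries, and Ryr1 and Ryr3 were below all other members. With the length of the longest annotated transcript in place of merged exons the order of the 10 was the same, although the Stim1 level became 18.8 and that of Tpcn2 3.58. Itpr2 was then above Itpr3 in 6 of 6 libraries, and Itpr3 above Trpm2 in 5 of 6.

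**Figure D2:**
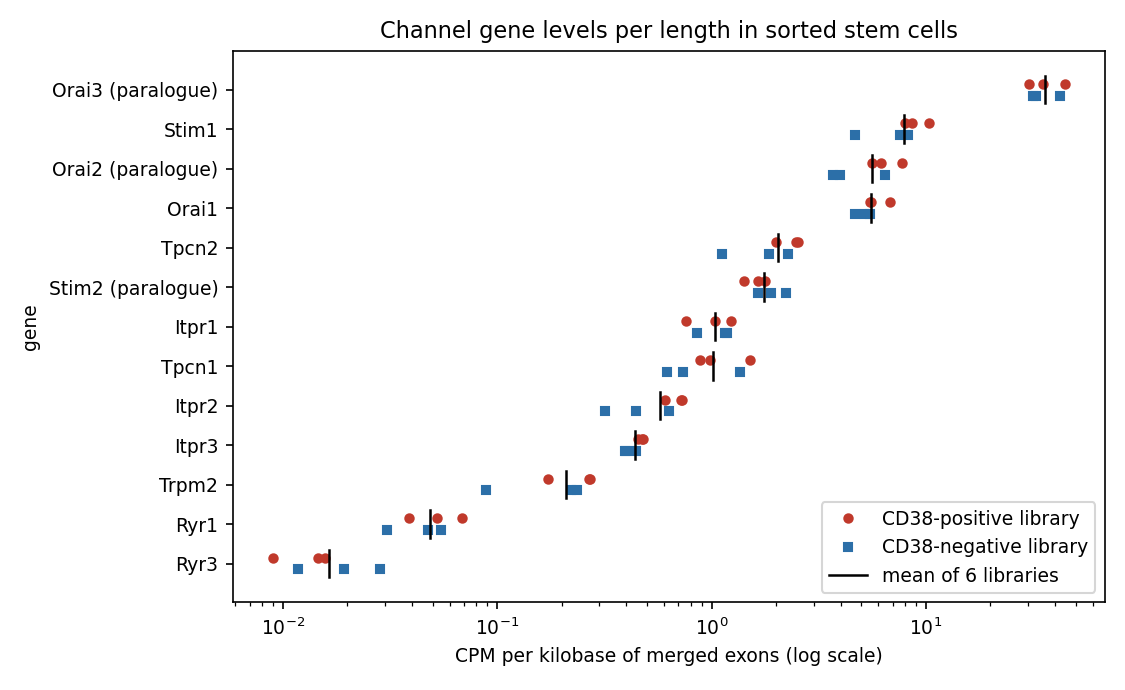
Level per kilobase of merged exons (CPM per kilobase, log scale, horizontal axis) of 9 members tested, Ryr3 and the paralogues Orai2, Orai3 and Stim2, 1 point per library with CD38-positive as circles and CD38-negative as squares; the bar is the mean of 6 libraries, and Ryr2, at 0 in 5 libraries, is not drawn. Orai3 at 36.1 is at the top, and Ryr1 at 0.0487 and Ryr3 at 0.0164 are at the bottom.

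The members were then tested between the populations. In edgeR's quasi-likelihood test with the replicate block, adjusted over all 14785 genes, 0 of the 9 tested members passed an adjusted p-value of 0.05, where 0.0135% of all genes passed. No member had an adjusted p-value below 0.926. Without adjustment, 1 member, Itpr2, was under 0.05 and higher in CD38-positive libraries, and 0 were lower, where 5.08% of all genes were under it, 2.47% higher and 2.61% lower. DESeq2 and limma-voom with the same block called 0 members, where they called 0.0744% and 0.0203% of all genes, and had 0 members under an unadjusted 0.05. The median log2 fold change of the 9 was 0.36, with 8 above 0 and 1 below, compared with 50.1% of all tested genes above 0. The members were higher on the CD38-positive side in all 3 pairs for 5 genes (Itpr2, Itpr3, Tpcn1, Tpcn2 and Orai1), where 13.2% of all genes were, and lower in all 3 pairs for 0 of the 9, where 11.3% of all genes were. The 10 endothelial and stromal marker genes summed to 249.0, 111.6 and 240.6 CPM in CD38-positive against 190.5, 109.6 and 119.0 CPM in CD38-negative libraries. The sum was higher in all 3 pairs, but the genes disagreed. Pecam1, Sparc, Ramp2 and Cdh5 were higher in all 3 pairs, and Col1a1 was lower in all 3. Cdh5 was near the floor of 3 counts, with 12, 5 and 5 reads against 6, 2 and 0. The others were mixed, with Cxcl12, the most abundant beside Pecam1, at 11.6 against 22.1 CPM in pair 2. The part of these cells in the differences of the members was not tested. Ryr3, outside the test, was lower in all 3 pairs, at 0.248 ± 0.0692 CPM in CD38-positive and 0.375 ± 0.157 CPM in CD38-negative libraries (SD, n = 3 each). Its reads were only 5, 3 and 5 against 9, 4 and 6, close to the floor, and uncertain because of Aven, so no direction is read from them.

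Itpr2 had a log2 fold change of 0.60 (SE 0.28), which is 1.52-fold with a 95% interval from 1.002 to 2.29 (edgeR unadjusted p = 0.0488, adjusted p = 0.926). Its paired differences were 0.20, 0.69 and 0.91. Stim1 was at 1.34-fold, with an interval from 0.982 to 1.84 (edgeR unadjusted p = 0.0629, adjusted p = 0.926). The Stim1 difference was near 0 in pair 1, at -0.04, and was 0.44 and 0.89 in pairs 2 and 3. The log2 fold change of Stim1 was 0.43 over all pairs, 0.20 without pair 3 and 0.66 without pair 1. Orai2, a paralogue, was close in size at 1.42-fold (interval 0.986 to 2.04, edgeR unadjusted p = 0.0584, adjusted p = 0.926), with paired differences of -0.19, 0.96 and 0.74. Its log2 fold change of 0.51 became 0.26 without pair 2 and 0.85 without pair 1.

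The remaining release channels followed. Tpcn2 was at 1.37-fold (interval 0.894 to 2.11), and its difference was 1.16 in pair 3 against 0.12 and 0.10 in pairs 1 and 2. Without pair 3 its log2 fold change was 0.11. Tpcn1 was at 1.28-fold (0.856 to 1.92), Trpm2 at 1.36-fold (0.700 to 2.65) and Ryr1 at 1.201-fold (0.568 to 2.54). For Trpm2 the sign rested on pair 3: the paired differences were 0.28, -0.43 and 1.52, and the log2 fold change was -0.08 without pair 3 and 0.90 without pair 2. The log2 fold change of Tpcn1 moved from 0.36 to 0.19 without pair 2, and that of Ryr1 from 0.26 to 0.43 without pair 1 and to 0.13 without pair 3. A 2-fold higher level in CD38-positive libraries lay inside the intervals of Trpm2, Ryr1, Tpcn2, Itpr2 and Orai2.

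The narrowest interval was that of Orai3, at 1.03-fold (0.781 to 1.36). Itpr1 was at 0.940-fold (0.648 to 1.37), and without pair 2 its log2 fold change turned from -0.09 to 0.17. In pair 2 the 675 tested genes with a longest transcript above 8 kb, as Itpr1 has, had a median log2 difference of -0.28. Their median was -0.0018 in pair 1 and 0.03 in pair 3. Of the other members above 8 kb, Itpr2 was at 0.69, Itpr3 at 0.19, Ryr1 at 0.30 and Ryr3, which was not tested, at -0.24 in pair 2; the part of transcript length in the Itpr1 difference was not tested. Stim2 was at 0.841-fold (0.559 to 1.26), and its log2 fold change of -0.25 became -0.06 without pair 2 and -0.43 without pair 1.

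Itpr3 and Orai1 were the 2 tested members whose populations did not overlap, both higher in CD38-positive libraries, where 3.33% of all genes were; 0 were apart and lower, where 3.19% of all genes were. Itpr3 was at 4.26, 4.07 and 4.30 CPM against 3.99, 3.56 and 3.61 CPM, and Orai1 at 12.7, 15.6 and 12.7 CPM against 10.7, 12.0 and 12.6 CPM. The lowest CD38-positive and highest CD38-negative Orai1 values were 12.65 and 12.6 CPM. Itpr3 was at 1.13-fold (interval 0.696 to 1.84, edgeR adjusted p = 0.965) and Orai1 at 1.16-fold (0.803 to 1.68, edgeR adjusted p = 0.943). The log2 fold change of Orai1 went from 0.21 to 0.11 without pair 2.

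**Figure D3:**
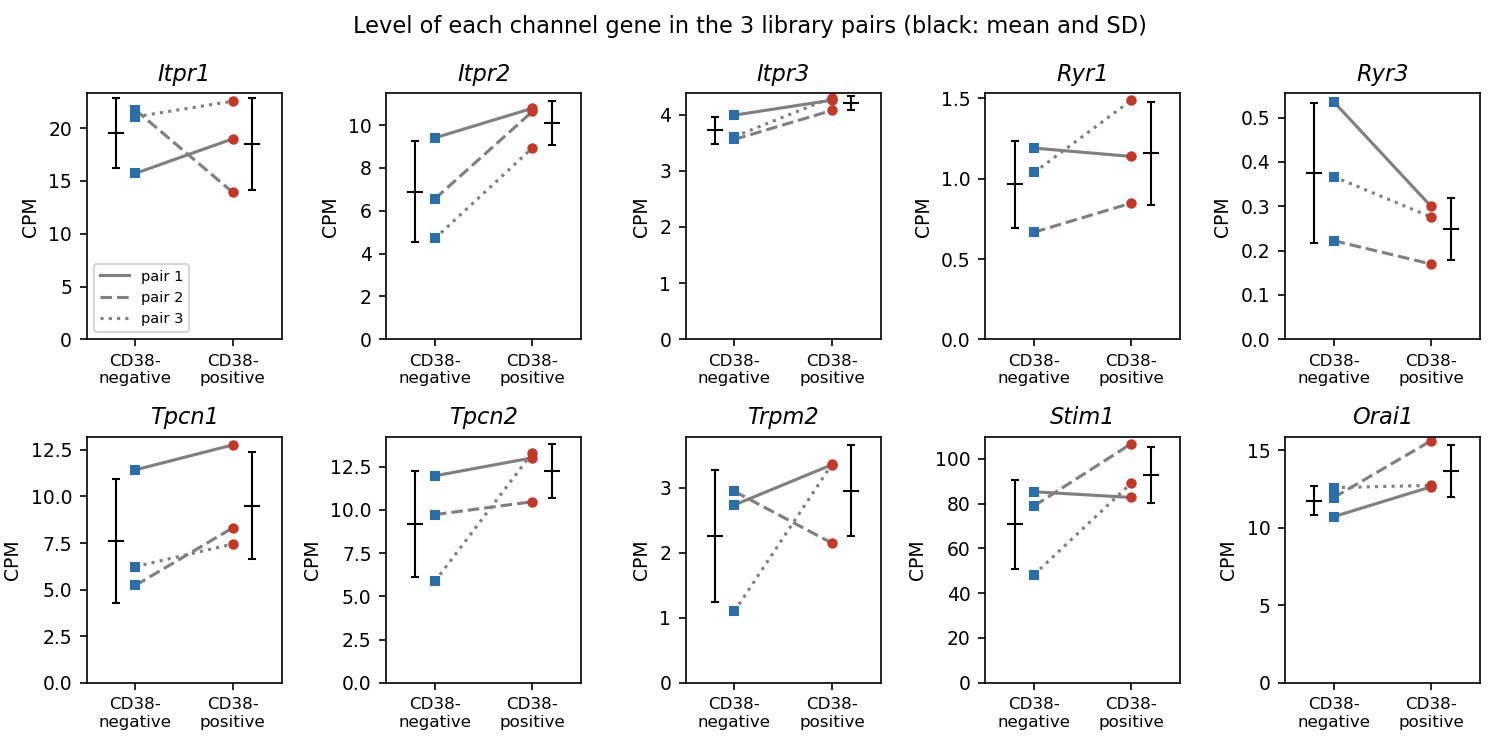
CPM (vertical axis, from 0) of each of the 10 members in the CD38-negative and CD38-positive library of each pair, joined by a line per pair; black marks are the mean and SD of 3 libraries. The lines of Itpr2 run upward in all 3 pairs, those of Itpr1 cross, and the low point of Stim1 at 48.2, of Tpcn2 at 5.87 and of Trpm2 at 1.10 is the CD38-negative library of pair 3.

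The CD38-negative library of pair 3 was the lowest of the 6 for Itpr2, Tpcn2, Trpm2, Stim1 and Orai2. The same library had the fewest detected genes, 19998 against 20805 to 21733 in the others, and the highest sum of B and plasma cell genes, at 4130 CPM. It was not low throughout, with Itpr1 at 21.1 CPM, Orai1 at 12.6 CPM and Stim2 at 9.72 CPM. The part of that library's composition in the differences was not tested. Without pair 3 the log2 fold changes were 0.44 for Itpr2 and 0.20 for Stim1.

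**Figure D4:**
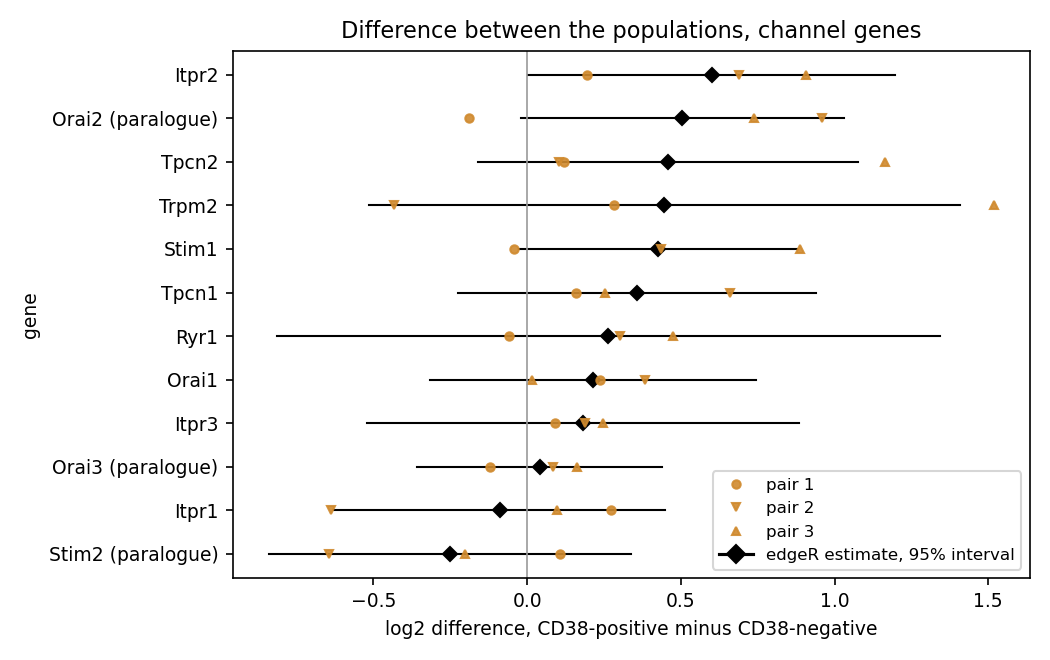
Log2 difference between CD38-positive and CD38-negative libraries (horizontal axis) for the 9 tested members and 3 paralogues, with the edgeR estimate and 95% interval in black and the 3 paired differences as coloured symbols. Intervals of all genes shown except Itpr2, whose lower bound is just above 0, include 0. The 3 pairs spread most for Trpm2, followed by Orai2 and Tpcn2.

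Of the genes tested, 3 followed Stim1 most closely over the 6 libraries, by Pearson correlation of log2 CPM: Klhl36 (r = 0.995), Abcd4 (r = 0.993) and Gm14453 (r = 0.992). With 6 libraries and 14785 genes, 57 genes had r above 0.95, and the 6 points share library composition and depth, so these values are a description only.

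The pathway beyond the 10 members was read from lists of regulators, messenger enzymes, pumps, buffers and other channels and the 4 paralogues above, of which 126 genes had a count row and 103 were tested. In edgeR 0 of the 103 passed the threshold, where 0.0135% of all genes did (smallest adjusted p = 0.893), and DESeq2 and limma-voom called 0 as well. At an unadjusted p under 0.05 there were 3 higher and 1 lower in CD38-positive libraries in edgeR, or 3.88% of those tested, beside 5.08% of all genes. DESeq2 and limma-voom had 3 each under that level. The median log2 fold change of the 103 was 0.03.

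The 3 higher ones were higher in all 3 pairs. Cd38 itself, the enzyme and sorted marker, was at 37.0, 46.3 and 58.3 CPM against 24.2, 35.6 and 23.9 CPM, or 1.69-fold (interval 1.21 to 2.37, edgeR adjusted p = 0.893). Its log2 fold change of 0.76 became 0.49 without pair 3. Mcub, which encodes the subunit that dampens the mitochondrial calcium uniporter, was at 9.59, 5.77 and 4.52 CPM against 3.75, 4.11 and 2.87 CPM, or 1.78-fold (interval 1.10 to 2.89, edgeR adjusted p = 0.925). Piezo1, a mechanically gated cation channel gene, was at 20.1, 19.3 and 12.3 CPM against 16.0, 9.79 and 9.84 CPM, or 1.46-fold (interval 1.002 to 2.13, edgeR adjusted p = 0.926). The log2 fold change of Piezo1, 0.54 over all pairs, was 0.32 without pair 2. The lower one, Mcoln2, a channel gene of endosomes and lysosomes named after its values were seen, had a log2 fold change of -0.69 but was opposite in sign in pair 3, at 0.09. Bst1, a homologue of Cd38 whose product also makes cyclic ADP-ribose, was at 1.17-fold (interval 0.713 to 1.90), with paired differences of 0.90, -0.49 and 0.25, and its log2 fold change was -0.13 without pair 1.

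Of all tested genes, 50.1% had a fitted log2 fold change above 0, and 5.08% had an unadjusted p under 0.05 in edgeR. By list, 9 of 12 store entry regulators were tested, with 5 fitted values above 0 and 4 below (median 0.08), and 0 under an unadjusted p of 0.05 in edgeR. For the regulators of the release channels it was 20 of 21, with 12 above and 8 below (median 0.03), again with 0 under 0.05. The genes that make or remove IP3 had 13 of 19 tested, 5 above and 8 below (median -0.14), and 0 under 0.05. Pumps and exchangers, which refill the stores or expel calcium, had 6 above and 5 below (median 0.03), with 0 under 0.05. Store calcium buffers had 8 above and 2 below (median 0.06), with 0 under 0.05. Mitochondrial uptake genes had 8 above and 3 below (median 0.14), with 1 of 11, or 9.09%, under 0.05. Other calcium-permeable channels had 4 above and 13 below (median -0.11), with 2 of 17, or 11.8%, under 0.05. Genes for the metabolism of cyclic ADP-ribose, NAADP and ADP-ribose had 7 above and 2 below (median 0.14), with Cd38 the 1 gene under an unadjusted 0.05.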

How the data were processed

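The authors deposited raw read counts per Ensembl gene, 1 table per library with 49585 genes and no header. Cutadapt, STAR and HTSeq 0.6.1p1, and the builds GRCm38 and mm10, are named in the submitters' processing notes; the strand setting and annotation release are not given in the sources used here. Symbols matched 49326 identifiers. Coordinates, exon lengths and overlaps came from GENCODE M21 (GRCm38).

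Genes were filtered with filterByExpr, scaled by TMM and tested in R 4.3.3 with edgeR 4.0.16 (quasi-likelihood F-test, pair plus population, Benjamini-Hochberg adjustment, threshold 0.05). Alternatives used DESeq2 1.42.0 and limma 3.58.1. Log2 CPM had a prior count of 2. Intervals are 95%. The procedure was tested on simulated data. Pairing came from the series' design text, which lists the libraries as matched sets, and was checked: after subtraction of the population mean, partners correlated at 0.341, 0.118 and 0.24 across genes, each above 0.1. Within a population no library repeated another (chi-square over its degrees of freedom 47.4 to 106). The labels state pools of 10 mice but not whether the pools were independent, so p-values measure the spread between these libraries. Floors cover counting error only.

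Genes named are the 10 members, their paralogues, pathway genes with an unadjusted p under 0.05 and the same sign in 3 pairs, Cd38, Bst1, and the 3 genes most like the most abundant member. Members and lists were chosen with earlier results of these data known. Of 127 pathway genes listed, 1 had no matching row and was not analysed here.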

Additional observations from a re-analysis of the deposited data

How the results depend on the processing

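For the members, 0 passed the threshold under each of the 10 alternatives to the test (no block, DESeq2, limma-voom, DESeq2 size factors, unscaled totals, 2 other filters and each pair left out), with 0 to 2 under an unadjusted 0.05. In the main edgeR test 5.08% of all genes were under that level, and that share is not given here for the alternatives. At the threshold, DESeq2 called 0.0744% and limma-voom 0.0203% of all genes. For the other scalings, filters and pairs left out, the share of all genes called is not given. The counts of members and pathway genes under those settings therefore cannot be read against it. Without the replicate block edgeR called 0 of all 14785 genes. The 0 members (smallest adjusted p = 0.994) and 0 pathway genes past the threshold there say nothing particular to them. Of 90 alternative log2 fold changes of members, 88 kept their sign. Leaving out a pair gave -0.27 to 0.17 for Itpr1, -0.0767 to 0.90 for Trpm2, -0.0203 to 0.12 for Orai3 and -0.13 to 0.57 for Bst1. Pathway genes past the threshold numbered 0 to 1, the 1 being Cd38 without pair 2 (edgeR adjusted p = 0.0463, against 0.0463 to 0.994 over its alternatives). The order by level changed at 0 to 2 positions, where Itpr1 and Tpcn1 traded places without pair 2 or pair 3. Share differences (CD38-positive minus CD38-negative) ranged from -1.26 to 1.57 points for Itpr3, from -0.15 to 2.03 for Orai1, from -6.65 to 4.33 for Tpcn1, from -13.79 to -3.15 for Itpr1, from 4.42 to 12.2 for Itpr2 and from 4.51 to 11.7 for Stim1 when a pair was left out. The causes were not tested. Unscaled totals moved the median of all genes by -0.02 on the log2 scale.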

Other observations

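Several calcium handling genes outside the members were more abundant per kilobase than most of the release channels. Plcg2, a phospholipase C that makes IP3 below immune receptors, was at 51.0 ± 10.7 CPM per kilobase (SD, n = 6 libraries), against 1.84 ± 0.480 for its paralogue Plcg1. Among phospholipase C beta genes, Plcb2 was at 9.12 ± 1.25 and Plcb1 at 0.357 ± 0.116. The store pump gene Atp2a3 was at 23.9 ± 8.45 and Atp2a2 at 7.01 ± 1.32, while the muscle pump gene Atp2a1 was at 0.476 ± 0.136.

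Trpc6, a receptor-operated cation channel gene, had 636 to 1707 reads per library and was at 12.3 ± 3.81 CPM per kilobase, above Orai1. Saraf, whose product slows store-operated entry, was at 102.5 ± 20.1. These genes were named after their values were seen, and no explanation was tested.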
